A study of Homo sapiens with 6 samples.

Results

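The genes described here were chosen by name: receptors for lysophosphatidic acid (LPAR), sphingosine 1-phosphate (S1PR), extracellular nucleotides (P2RY), prostaglandin E2 (PTGER), adenosine (ADORA), adrenaline and noradrenaline (ADRA and ADRB) and cleaving proteases (F2R), the latrophilin genes (LPHN), the GPRC5 genes, and all genes whose symbol is GPR and a number. They number 146 of the 56638 genes in the count tables. The GPR-named genes are 97 of the 146 and are mostly orphan receptors, so receptors with known lipid or nucleotide ligands are the smaller part of the set. Counting the latrophilins, 21 of the 146 are adhesion receptors, now named ADGR. A few carry a GPR name without being established G protein-coupled receptors, such as GPR107 and GPR108, membrane proteins of the Golgi, and GPR89A and GPR89B, near-identical genes for a Golgi anion channel.

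Total RNA of cells labelled as the line SW480, which was derived from a human colorectal adenocarcinoma, was sequenced in 6 libraries. The TGFB1 group (3 libraries) received TGF-β1 at 10 ng/ml on more than 4 occasions, and the control group (3 libraries) received none. Cells of both groups were at passages 16 to 19 and grew in the same serum-supplemented medium, and the labels do not tell whether each library had its own culture. The spread behind every p-value here is therefore that between these libraries, and it may be technical. Total counts in genes ran from 13012898 to 16005222 per library.

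The libraries went against the tissue on their label. Of 13 colorectal epithelial markers 3 reached 1 CPM (counts scaled to library size) in control cells, namely EPCAM and the keratins KRT8 and KRT18, while CDX2, GPA33 and PHGR1 had no count in any library and CDX1, VIL1, CDH17, KRT20, LGALS4 and CEACAM5 stayed at 0.277 CPM or less in both groups. The 13 markers, mainly KRT8, summed to 1783 to 1825 CPM in TGFB1 libraries and 1897 to 1911 CPM in control libraries. The cells are therefore called by their label only, and the part of any marker list in the receptor changes was not tested. Of 10 fibroblast markers 5 could be tested and were called higher with TGF-β1, where 23.4% of all genes tested were, but 2 of the 5 passed the count filter through 1 group alone. The median log2 fold change of the 5 was 1.12, and 3 of the 5 rose at least 2-fold, as did 5.34% of all genes tested. The summed level of the 10 was 120.1 to 136.1 CPM in TGFB1 libraries against 90.98 to 95.03 CPM in control libraries, but COL1A2, COL3A1, PDGFRA and POSTN did not exceed 0.0659 CPM in either group. Immune markers summed to 4.89 to 6.78 CPM in TGFB1 libraries and 3.27 to 3.40 CPM in control libraries, with PTPRC and MS4A1 at 0 counts. Endothelial markers summed to 82.1 to 84.6 CPM in TGFB1 libraries and 73.3 to 78.8 CPM in control libraries, nearly all of it ESAM, with PECAM1 and KDR at 0 counts. In bulk RNA, fewer cells of a type and less RNA per cell cannot be told apart.

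G protein-coupled receptors span the membrane several times and pass the binding of an outside ligand to heterotrimeric G proteins. Gs raises cyclic AMP, Gi lowers it, Gq activates phospholipase C, and G proteins of a further class activate the GTPase RHOA. Lysophosphatidic acid, sphingosine 1-phosphate, nucleotides, adenosine and prostaglandin E2 are local signals that cells release and degrade outside themselves, and epithelial and tumour cells commonly carry several receptors for each, coupled to different G proteins. Receptor mRNAs are often scarce, and a level in mRNA is not a level of receptor at the surface.

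Receptor mRNAs moved in both directions with TGF-β1, and more of them rose than fell. LPAR5 and S1PR1 rose 8.74-fold and 5.65-fold, the abundant adhesion receptor GPR56 rose 3.12-fold, and the UDP receptor P2RY6 and the adenosine receptor ADORA2B fell 2.16-fold and 2.49-fold. Of the 146 genes, 60 had enough counts for a test, and of these 22 rose, 15 fell and 23 did not pass in edgeR's quasi-likelihood test at an adjusted p under 0.05, with adjustment over all 14897 genes tested. The 37 called are 61.7% of those tested, against 47.3% of all genes tested (23.4% higher and 23.9% lower), and the difference between these shares was not tested. At least a 2-fold change was called for 13 higher and 5 lower receptor genes, 30.0% of those tested, against 9.5% of all genes (5.34% higher and 4.16% lower). The median log2 fold change (TGFB1 minus control) was 0.22 for the 60 and 0.00033 for all genes tested. Of the 60, 7 passed the count filter through the libraries of 1 group alone, and 6 of these 7 were called, so the filter itself fixed their direction. In 40 of the 60 (66.7%) the 3 TGFB1 libraries did not overlap the 3 control libraries, as in 54.2% of all genes.

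**Figure D1:**
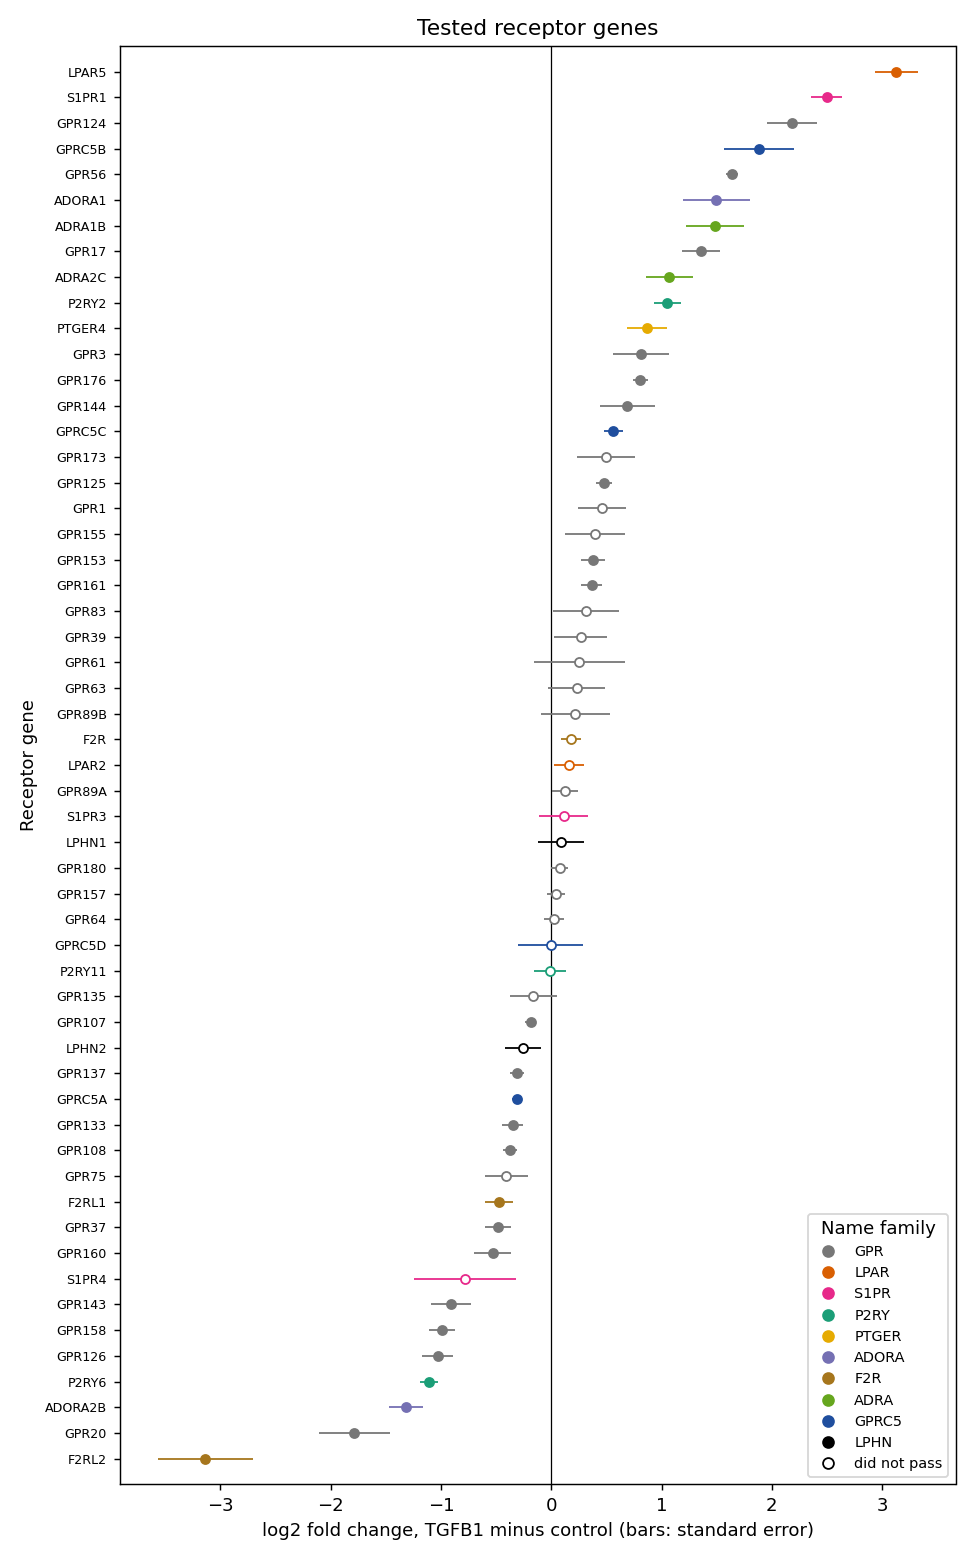
Log2 fold change (TGFB1 minus control, horizontal axis) with its standard error for 55 of the 60 tested receptor genes, ordered by size and coloured by name family, with open circles for genes that did not pass the test. Of those drawn, 18 are called higher and reach 3.13 (LPAR5), and 15 are called lower and reach −3.13 (F2RL2, which passed the count filter through control libraries alone).

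The stretches of DNA just before the start sites of 4 strongly changed genes are shown because these genes moved far apart in direction and have a single start site in the RefSeq table. They are the 250 bases before the RefSeq start, 5′ to 3′ along the gene, from assembly GRCh38.p14, a different build from the hg19 and GRCh37 named for the counts. Capitals mark matches on either strand to CAGAC (a SMAD element), TGANTCA (an AP-1 element) or GGAATG (a TEAD element), short motifs that do not overlap in these windows. LPAR5 lies at chr12:6631650-6631899 on the minus strand, S1PR1 at chr1:101236769-101237018 on the plus strand, ADORA2B at chr17:15944880-15945129 on the plus strand, and GPR126 (now ADGRG6) at chr6:142301757-142302006 on the plus strand.
LPAR5: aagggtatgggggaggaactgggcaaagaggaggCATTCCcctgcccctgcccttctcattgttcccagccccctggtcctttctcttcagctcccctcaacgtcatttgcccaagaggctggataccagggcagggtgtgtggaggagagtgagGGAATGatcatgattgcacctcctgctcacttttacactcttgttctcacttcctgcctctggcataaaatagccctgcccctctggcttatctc
S1PR1: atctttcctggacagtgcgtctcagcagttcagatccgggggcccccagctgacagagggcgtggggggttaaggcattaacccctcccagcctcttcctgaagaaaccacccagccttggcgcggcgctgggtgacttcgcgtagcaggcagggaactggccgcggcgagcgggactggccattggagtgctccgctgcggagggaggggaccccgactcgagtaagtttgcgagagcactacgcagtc
ADORA2B: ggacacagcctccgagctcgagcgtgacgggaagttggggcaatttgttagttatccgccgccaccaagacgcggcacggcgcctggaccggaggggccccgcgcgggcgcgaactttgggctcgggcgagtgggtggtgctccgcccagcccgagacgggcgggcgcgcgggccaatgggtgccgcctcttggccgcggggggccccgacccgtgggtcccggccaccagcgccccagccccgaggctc
GPR126: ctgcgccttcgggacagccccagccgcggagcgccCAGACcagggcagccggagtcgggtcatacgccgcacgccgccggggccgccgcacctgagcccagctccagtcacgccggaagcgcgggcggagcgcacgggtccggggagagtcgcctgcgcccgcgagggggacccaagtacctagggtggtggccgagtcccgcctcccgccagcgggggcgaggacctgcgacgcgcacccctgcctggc

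The LPAR5 window holds 2 TEAD matches and 55.2% G and C, the GPR126 window 1 SMAD match and 77.6%, and the S1PR1 and ADORA2B windows no match, at 64.4% and 75.2%, where the median over all 35116 windows is 58.0%. Among the windows of receptor genes called higher, 13 of 22 (59.1%, from 15 genes) held CAGAC, among those called lower 5 of 14 (35.7%, from 10 genes), and among all windows 38.0%. Counted by gene, 9 of 15 called higher (60%), 5 of 10 called lower (50%) and 11677 of all 27305 (42.8%) held CAGAC in at least 1 window, so the genes called lower stand under the background by window and over it by gene. TGANTCA was in 2 of the 22, 1 of the 14 and 6.57% of all windows, GGAATG was in 4 of the 22, 2 of the 14 and 11.9% of all windows, and the cyclic AMP element TGACGTCA in 1 of the 22, 0 of the 14 and 1.65% of all windows. Several genes have more than 1 window, so windows are not independent, and a match is not a bound site. RefSeq windows were found for 105 of the 146 genes.

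Among the receptors for lysophosphatidic acid, LPAR5 rose and LPAR2 did not pass. LPAR5, which couples to Gq and to RHOA-activating G proteins, had 12.43, 12.04 and 10.41 CPM in TGFB1 libraries 1, 2 and 3, against 1.98, 0.902 and 1.14 CPM in control libraries 1, 2 and 3. All 3 TGFB1 libraries stood far above the controls, and the log2 fold change was 3.13 ± 0.19 (SE, edgeR adjusted p = 6.52e-14). LPAR2, the main lysophosphatidic acid receptor mRNA in control cells, had 7.95, 8.19 and 7.09 CPM in TGFB1 libraries and 7.93, 6.80 and 6.21 CPM in control libraries, groups that overlapped (log2 fold change 0.16 ± 0.14, edgeR adjusted p = 0.359). Per kilobase of exon, LPAR5 made up 57.3% ± 0.811 of the summed LPAR level in TGFB1 libraries and 14.2% ± 3.89 in control libraries (SD, n = 3 each), while LPAR2 made up 41.8% ± 0.921 in TGFB1 libraries and 83.4% ± 3.63 in control libraries. The sum itself was 6.22 ± 0.515 CPM per kb in TGFB1 libraries and 2.82 ± 0.437 CPM per kb in control libraries. LPAR1, LPAR3, LPAR4 and LPAR6 failed the count filter, LPAR6 with 8 counts over the TGFB1 libraries and 7 over the control libraries.

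Among the receptors for sphingosine 1-phosphate, S1PR1 rose, and S1PR3 and S1PR4 did not pass. S1PR1, a Gi-coupled receptor known for guiding lymphocyte exit and for tightening endothelial barriers, had 17.7, 15.9 and 21.1 CPM in TGFB1 libraries, against 2.94, 3.12 and 3.54 CPM in control libraries. The groups stood well apart (log2 fold change 2.50 ± 0.14, edgeR adjusted p = 7.48e-15). The 8 endothelial markers also summed higher, at 82.1 to 84.6 CPM in TGFB1 libraries against 73.3 to 78.8 CPM in control libraries. Only 2 could be tested, with ESAM called higher and VWF called lower, and 1 of these passed the count filter through 1 group alone. PECAM1 and KDR had 0 counts, and the part of these markers in the S1PR1 result was not tested. S1PR3 had 3.07 ± 1.00 CPM in TGFB1 libraries and 2.89 ± 0.227 CPM in control libraries and did not pass (edgeR adjusted p = 0.715). S1PR1 held 81.5% ± 5.11 of the summed S1PR level per kilobase in TGFB1 libraries and 44.1% ± 3.16 in control libraries. S1PR4 did not pass (log2 fold change −0.78 ± 0.46, edgeR adjusted p = 0.176). S1PR2, with 49 counts over TGFB1 libraries and 18 over control libraries, failed the filter, and its TGFB1 values of 0.883, 1.77 and 0.528 CPM overlapped the control values of 0.220, 0.347 and 0.668 CPM. S1PR5 had no count.

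Nucleotide receptors moved apart from each other. P2RY6, the Gq-coupled receptor for UDP, had 29.7, 29.3 and 22.7 CPM in TGFB1 libraries and 59.6, 55.2 and 62.4 CPM in control libraries, lower in every TGFB1 library (log2 fold change −1.11 ± 0.08, edgeR adjusted p = 7.96e-12). P2RY2, the Gq-coupled receptor for ATP and UTP, had 13.4, 14.8 and 11.6 CPM in TGFB1 libraries and 6.02, 6.11 and 7.08 CPM in control libraries, higher in every TGFB1 library (log2 fold change 1.05 ± 0.13, edgeR adjusted p = 5.29e-08). Per kilobase, P2RY6 was still the leading P2Y mRNA with TGF-β1, at 47.4% ± 2.74 of the family sum against 74.5% ± 2.19 in control libraries, and P2RY2 held 32.2% ± 1.60 in TGFB1 libraries against 11.2% ± 0.636 in control libraries. P2RY11, an ATP receptor, stood at 6.37 ± 0.500 CPM in TGFB1 libraries and 6.39 ± 0.964 CPM in control libraries (edgeR adjusted p = 0.965), and 50% of its exon length is shared with the read-through gene PPAN-P2RY11. The other P2RY genes, P2RY1, P2RY4, P2RY8, P2RY10, P2RY12, P2RY13 and P2RY14, failed the filter. GPR17, an orphan receptor for which uracil nucleotides have been proposed as ligands, had 6.12, 6.91 and 6.04 CPM in TGFB1 libraries and 2.28, 2.36 and 2.81 CPM in control libraries (log2 fold change 1.35 ± 0.17, edgeR adjusted p = 1.80e-07). It shares 7.3% of its exon length with LIMS2 on the opposite strand, which rose alongside, to 48.6 ± 2.33 CPM in TGFB1 libraries against 22.1 ± 1.68 CPM in control libraries. Without a stated strand setting, how reads over the shared part were counted is not known, and the part of LIMS2 in the GPR17 result was not tested.

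Adenosine receptors went in opposite directions. ADORA2B, a Gs-coupled receptor of low affinity, had 3.19, 3.48 and 4.30 CPM in TGFB1 libraries and 8.30, 9.16 and 9.68 CPM in control libraries, without overlap (log2 fold change −1.31 ± 0.15, edgeR adjusted p = 2.75e-08). ADORA1, a Gi-coupled receptor, had 2.31, 1.83 and 1.81 CPM in TGFB1 libraries and 0.661, 0.833 and 0.601 CPM in control libraries (2.82-fold, edgeR adjusted p = 0.00017), but it passed the count filter through TGFB1 libraries alone. Per kilobase, ADORA1 made up 23.9% ± 4.88 of the adenosine receptor sum in TGFB1 libraries and 4.41% ± 0.763 in control libraries, and ADORA2B made up 71.4% ± 5.29 in TGFB1 libraries and 93.6% ± 1.71 in control libraries. ADORA2A, with 16 counts over TGFB1 libraries and 13 over control libraries, and ADORA3 failed the filter. ADORA2A shares 56.8% of its exon length with SPECC1L-ADORA2A on the same strand. Reads over several genes are outside the gene counts, so its level and its share of the family sum may be understated.

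Prostaglandin E2 receptor mRNA was mainly PTGER4, the Gs-coupled EP4 receptor. It had 6.25, 5.50 and 4.75 CPM in TGFB1 libraries and 3.30, 2.36 and 3.41 CPM in control libraries, without overlap (log2 fold change 0.87 ± 0.18, edgeR adjusted p = 0.000241). PTGER2, the Gs-coupled EP2 receptor, had 3 counts over TGFB1 libraries and 18 over control libraries, 6.18-fold fewer after scaling with an exact 95% counting interval of 1.81 to 32.8, and PTGER3, the Gi-coupled EP3 receptor, had 7 counts over TGFB1 libraries and 23 over control libraries. Both failed the filter.

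**Figure D2:**
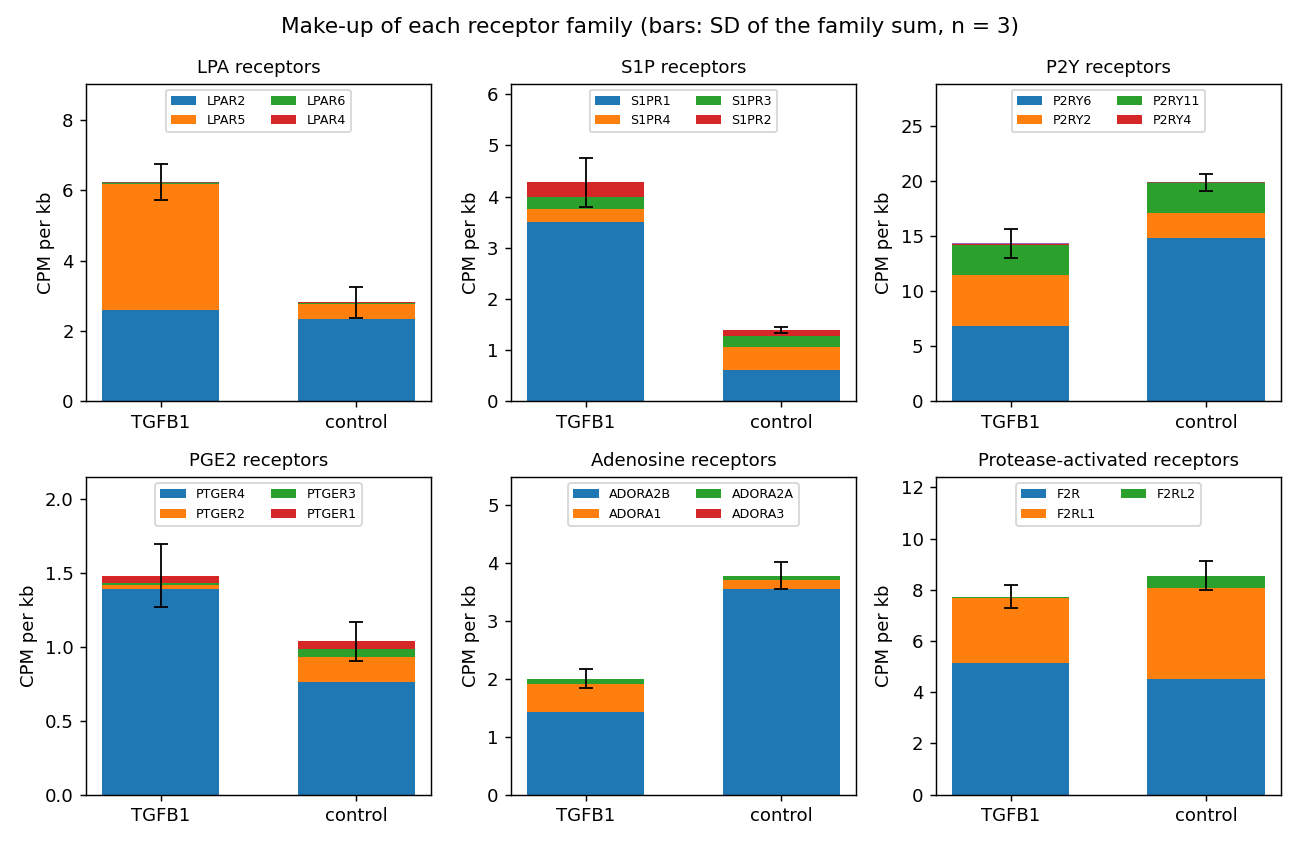
Summed mRNA level of 6 receptor families in TGFB1 and control libraries, in CPM per kilobase of exon (vertical axes), with a colour per member and the SD of the family sum over 3 libraries as black bars. LPAR5 is 57.3% of the LPA receptor sum with TGF-β1 and 14.2% in controls, and P2RY6 is 47.4% of the P2Y sum with TGF-β1 and 74.5% in controls.

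Among protease-activated receptors, which are switched on by cleavage of their outer end, F2RL2 (PAR3, a thrombin cofactor) had 0.136, 0.183 and 0.226 CPM in TGFB1 libraries and 1.91, 1.249 and 1.80 CPM in control libraries, 8.78-fold lower (log2 fold change −3.13 ± 0.43, edgeR adjusted p = 6.63e-07). It rests on 8 counts over TGFB1 libraries and 71 over control libraries, and passed the filter through control libraries alone. F2RL1 (PAR2, cleaved by trypsin-like proteases) had 7.88, 7.21 and 7.55 CPM in TGFB1 libraries and 10.5, 9.16 and 11.8 CPM in control libraries, 1.39-fold lower without overlap (edgeR adjusted p = 0.00241). F2R (PAR1, the main thrombin receptor) led the family, at 20.8 ± 2.17 CPM in TGFB1 libraries and 18.4 ± 0.762 CPM in control libraries, and did not pass although its groups did not overlap (edgeR adjusted p = 0.101). F2RL3 had no count.

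Both tested α-adrenergic receptors rose. ADRA2C, coupled to Gi, had 4.69, 5.56 and 4.08 CPM in TGFB1 libraries and 2.79, 2.57 and 1.54 CPM in control libraries (2.10-fold, edgeR adjusted p = 0.000112). ADRA1B, coupled to Gq, had 2.99, 3.30 and 2.49 CPM in TGFB1 libraries and 1.32, 0.833 and 1.00 CPM in control libraries (2.80-fold, edgeR adjusted p = 2.45e-05). The β-adrenergic receptor ADRB1, coupled to Gs, failed the filter with 9 counts over TGFB1 libraries and 35 over control libraries. ADRA2A had 9 counts over TGFB1 libraries and 3 over control libraries, a ratio of 2.91 whose exact 95% counting interval of 0.726 to 16.7 spans equality.

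**Figure D3:**
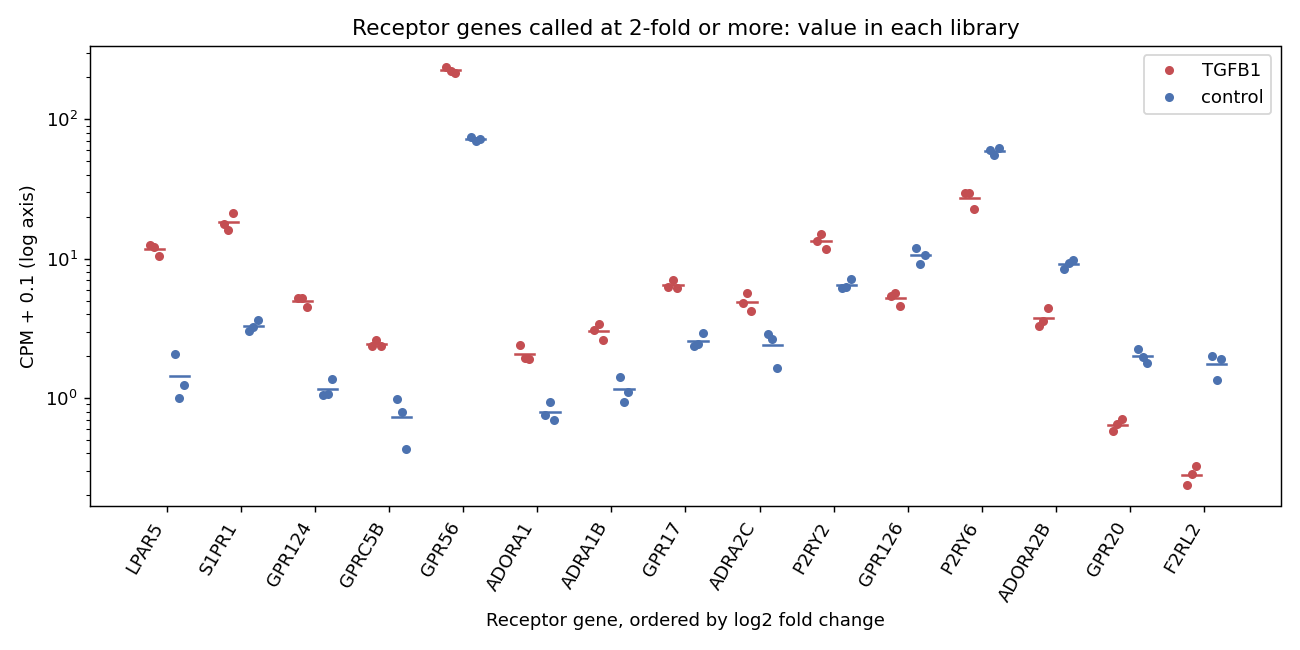
CPM plus 0.1 (log axis) in each library for 15 of the 18 receptor genes called with at least a 2-fold change, with TGFB1 libraries left of control libraries and a line at each mean. GPR56 sits at 214 to 238 CPM with TGF-β1 and 70.0 to 74.2 CPM in controls, and P2RY6 at 22.7 to 29.7 CPM with TGF-β1 and 55.2 to 62.4 CPM in controls.

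Adhesion receptors, whose long outer domains bind matrix or neighbouring cells, held the most abundant mRNA that rose. GPR56 (ADGRG1), a receptor for collagen III in the developing brain of mice, had 238, 222 and 214 CPM in TGFB1 libraries and 74.16, 70.02 and 71.99 CPM in control libraries, 3.12-fold higher (log2 fold change 1.64 ± 0.05, edgeR adjusted p = 2.52e-20). Per kilobase it was first among the 145 receptor genes with a known length in TGFB1 libraries, at 25.9 CPM per kb, and sixth in control libraries, at 8.32 CPM per kb. GPR124 (ADGRA2), a partner of WNT7 signalling in brain vessels, had 5.10, 5.13 and 4.38 CPM in TGFB1 libraries and 0.955, 0.972 and 1.27 CPM in control libraries (4.54-fold, edgeR adjusted p = 3.30e-09). It shares 23.1% of its exon length with BRF2 on the opposite strand, which stood at 9.58 ± 1.23 CPM in TGFB1 libraries and 8.71 ± 0.640 CPM in control libraries and did not pass (edgeR adjusted p = 0.428).

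Of 21 adhesion receptor genes 10 were tested, of which 5 rose (50%, against 23.4% of all genes tested), 2 fell (20%, against 23.9%) and 3 did not pass. GPR125 (ADGRA3) had 40.4, 38.4 and 39.5 CPM in TGFB1 libraries and 30.5, 25.9 and 28.6 CPM in control libraries, 1.39-fold higher without overlap (edgeR adjusted p = 3.48e-06). GPR144 (ADGRD2) had 2.31, 3.42 and 3.40 CPM in TGFB1 libraries and 1.91, 1.18 and 2.54 CPM in control libraries, groups that overlapped, and its call (edgeR adjusted p = 0.0247) ended without TGFB1 2, TGFB1 3, control 1 or control 2 (edgeR adjusted p = 0.0942, 0.0771, 0.0536 and 0.171). DESeq2 did not call it either (DESeq2 adjusted p = 0.0678). GPR126 (ADGRG6), needed for myelination by Schwann cells in mice and fish, had 5.30, 5.56 and 4.45 CPM in TGFB1 libraries and 11.9, 9.09 and 10.5 CPM in control libraries (log2 fold change −1.03 ± 0.14, edgeR adjusted p = 4.99e-07). The smaller fall was in GPR133 (ADGRD1), with 14.9, 13.7 and 13.2 CPM in TGFB1 libraries and 17.3, 17.0 and 18.9 CPM in control libraries (1.27-fold lower, edgeR adjusted p = 0.00340). GPR64 and the latrophilins LPHN1 and LPHN2 did not pass. GPR115 (ADGRF4) failed the filter with 12, 15 and 7 counts in TGFB1 libraries and none in control libraries, at least 10.99-fold higher against a floor of 3 counts over the group.

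Class C orphan receptors of the GPRC5 family were led by GPRC5A, a retinoic acid-induced gene, which was first among the 145 per kilobase in control libraries. It had 183, 173 and 185 CPM in TGFB1 libraries and 221, 222 and 228 CPM in control libraries, 1.24-fold lower in groups that did not overlap (edgeR adjusted p = 3.21e-06). GPRC5C had 33.8, 30.9 and 28.0 CPM in TGFB1 libraries and 22.7, 19.6 and 20.5 CPM in control libraries, higher without overlap (1.48-fold, edgeR adjusted p = 2.37e-06). GPRC5B had 2.24, 2.51 and 2.26 CPM in TGFB1 libraries and 0.881, 0.694 and 0.334 CPM in control libraries (3.69-fold, edgeR adjusted p = 1.26e-05), having passed the filter through TGFB1 libraries alone. It shares 26.7% of its exon length with IQCK on the opposite strand, at 6.80 ± 0.988 CPM in TGFB1 libraries and 6.497 ± 0.708 CPM in control libraries (edgeR adjusted p = 0.721). GPR158, a class C glycine receptor of neurons, had 6.32, 7.03 and 6.26 CPM in TGFB1 libraries and 13.4, 12.3 and 13.4 CPM in control libraries (1.99-fold lower, edgeR adjusted p = 4.34e-08).

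Orphan and lesser-known receptors made up the rest. Leaving out adhesion receptors, 29 GPR-named genes were tested, of which 8 rose (27.6%), 8 fell (27.6%) and 13 did not pass, shares near the 23.4% and 23.9% of all genes tested, GPR17 and GPR158 above included. GPR176, a Gz-coupled orphan of the mouse brain clock, was per kilobase the most abundant of those that rose, with 52.9, 51.3 and 50.3 CPM in TGFB1 libraries and 30.99, 27.97 and 29.32 CPM in control libraries (1.75-fold, edgeR adjusted p = 4.71e-11). GPR161, which restrains Hedgehog signalling at the primary cilium, had 25.6, 23.8 and 20.1 CPM in TGFB1 libraries and 17.3, 16.4 and 20.3 CPM in control libraries, so that TGFB1 3 lay just under control 3 (1.29-fold higher, edgeR adjusted p = 0.00250). In GPR153, an orphan, TGFB1 libraries had 16.8, 19.3 and 14.2 CPM and control libraries 13.3, 12.8 and 12.8 CPM, higher without overlap, and its call ended without TGFB1 2 (edgeR adjusted p = 0.00441 with all libraries, 0.0676 without). GPR3, active without a ligand through Gs, had 2.99, 2.57 and 2.04 CPM in TGFB1 libraries and 1.248, 1.735 and 1.336 CPM in control libraries, and its call ended without TGFB1 1 (edgeR adjusted p = 0.00873 with all libraries, 0.0578 without).

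The falls in this group reached from 1.14-fold in GPR107 to 3.44-fold in GPR20. GPR107, at the Golgi, had 172, 175 and 168 CPM in TGFB1 libraries and 206, 192 and 188 CPM in control libraries (edgeR adjusted p = 0.00265). GPR108, its close relative, had 49.1, 50.5 and 47.8 CPM in TGFB1 libraries and 62.7, 67.0 and 60.8 CPM in control libraries (1.29-fold lower, edgeR adjusted p = 1.40e-05). Neither gene's groups overlapped, nor did those of GPR137, a protein of lysosomes, with 34.6, 34.4 and 34.6 CPM in TGFB1 libraries and 41.2, 43.9 and 43.2 CPM in control libraries (1.24-fold lower, edgeR adjusted p = 0.000295). GPR137 shares 10% of its exon length with BAD on the opposite strand, and GPR160 shares 11.6% with AC008040.2 on the same strand. GPR37, a receptor of glia and neurons known as a substrate of the ubiquitin ligase parkin, had 9.92, 7.95 and 8.90 CPM in TGFB1 libraries and 12.04, 11.87 and 13.42 CPM in control libraries (edgeR adjusted p = 0.00101). GPR143, the pigment cell receptor mutated in ocular albinism, had 3.46, 2.20 and 3.40 CPM in TGFB1 libraries and 5.87, 5.62 and 5.34 CPM in control libraries (edgeR adjusted p = 0.000141). GPR160, an orphan, had 4.21, 3.42 and 3.77 CPM in TGFB1 libraries and 4.55, 5.76 and 6.08 CPM in control libraries (edgeR adjusted p = 0.0110), and leaving out TGFB1 2 or control 3 ended its call (edgeR adjusted p = 0.0544 and 0.0667). GPR20, an orphan with 0.543 ± 0.0643 CPM in TGFB1 libraries and 1.89 ± 0.230 CPM in control libraries, passed through control libraries alone (3.44-fold lower, edgeR adjusted p = 3.72e-05). GPR180 was the only gene among the 10 highest CPM levels of the set that did not pass, at 26.1 ± 0.421 CPM in TGFB1 libraries and 24.8 ± 2.12 CPM in control libraries (edgeR adjusted p = 0.465). The other 12 that did not pass, GPR1, GPR39, GPR61, GPR63, GPR75, GPR83, GPR89A, GPR89B, GPR135, GPR155, GPR157 and GPR173, had log2 fold changes between −0.41 (GPR75) and 0.49 (GPR173).

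Most of the 146 genes had few or no counts. Of the 86 that failed the filter, 29 had no count in any library, 38 had 1 to 9 counts over the 6 libraries and 19 had 10 or more, and none had a mean over 1.06 CPM in either group. A count of 0 allows up to 0.0677 CPM over the TGFB1 libraries and 0.0698 CPM over the control libraries, counting error only. When the filter was dropped, 7 of the 86 were called, GPR115, GPR132, GPR183 and S1PR2 higher and ADRB1, PTGER2 and PTGER3 lower. That fit called 7111 of all 29131 genes with a count, which include those that pass the filter. The share called among all genes that fail the filter was not counted, so the 7 have no background to stand beside. GPR132, a receptor that senses protons and oxidised fatty acids, had 25 counts over TGFB1 libraries and 4 over control libraries, and GPR183, the oxysterol receptor, had 35 over TGFB1 libraries and 10 over control libraries. Of the remaining genes with 10 or more counts, ADRA2A, ADORA2A, LPAR6, GPR19, GPR34, GPR35, GPR55, GPR98, GPR137C, GPR146 and GPR162 had at most 23 counts over the TGFB1 libraries and 20 over the control libraries.

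Genes that act with these receptors were described by 8 lists, whose counts stand beside the 23.4% of all genes tested that rose and the 23.9% that fell. No list was tested against other genes. Subunits of G proteins were higher in 11 of 20 tested (55.0%), lower in 1 (5.0%) and did not pass in 8 (median log2 fold change 0.13). GNAO1, a Gi-class α subunit, stood at 19.4 ± 2.00 CPM in TGFB1 libraries and 9.13 ± 0.720 CPM in control libraries (edgeR adjusted p = 1.16e-09), the γ subunits GNG11 and GNG4 rose 1.67-fold and 2.83-fold, and the β subunit GNB4 fell 1.42-fold. Receptor kinases, arrestins and RGS proteins, which switch receptors or G proteins off, rose in 9 of 18 (50%), fell in 3 (16.7%) and did not pass in 6 (median 0.24), and 2 of the called passed the filter through 1 group alone. The arrestin genes, whose proteins bind phosphorylated receptors, parted, as ARRB1 stood at 20.6 ± 1.99 CPM in TGFB1 libraries and 9.83 ± 1.00 CPM in control libraries and ARRB2 at 47.0 ± 1.65 CPM in TGFB1 libraries and 120.3 ± 1.43 CPM in control libraries (edgeR adjusted p = 1.18e-09 and 9.98e-18). GRK5, a receptor kinase, rose 2.25-fold and RGS3 fell 2.13-fold.

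Cyclic AMP enzymes held more falls than rises. Adenylyl cyclases, phosphodiesterases and subunits of protein kinase A numbered 19 with a test, of which 10 fell (52.6%, against 23.9% of all genes), 1 rose (5.26%, against 23.4%) and 8 did not pass (median −0.28). The phosphodiesterases PDE7B, PDE8B and PDE4D, which degrade cyclic AMP, fell 4.13-fold, 2.33-fold and 1.96-fold, and ADCY6, which makes it, fell 1.56-fold. Effectors of Gq and of RHOA-activating G proteins rose in 9 of 20 (45.0%, against 23.4% of all genes), fell in 6 (30.0%, against 23.9%) and did not pass in 5 (median 0.19), with 1 of the called let through by 1 group alone. PRKCA, a protein kinase C, stood at 139 ± 14.2 CPM in TGFB1 libraries and 50.6 ± 3.63 CPM in control libraries, the exchange factor TRIO rose 1.94-fold, and ARHGEF12, an exchange factor for RHOA, and RHOB fell 1.61-fold and 1.46-fold. Of 17 tested transcripts known to follow cyclic AMP or serum signals 8 rose (47.1%), 7 fell (41.2%) and 2 did not pass (median 0.0084). Among them CTGF and CYR61 rose 2.12-fold and 1.93-fold and NR4A3 fell 3.12-fold, and PDE4D is in this list too.

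Genes for making, moving or removing the ligands fell into 3 of the lists. For lysophosphatidic acid and sphingosine 1-phosphate, 15 were tested, with 4 higher (26.7%, against 23.4% of all genes), 5 lower (33.3%, against 23.9%) and 6 not passed (median −0.05), shares near those of all genes. SPHK1, a kinase that makes sphingosine 1-phosphate, stood at 184 ± 8.34 CPM in TGFB1 libraries and 50.9 ± 2.50 CPM in control libraries (edgeR adjusted p = 6.22e-21), and PPAP2B, a phosphatase that removes both lipids outside the cell, at 15.8 ± 1.13 CPM in TGFB1 libraries and 4.20 ± 0.584 CPM in control libraries. SGPP1, a sphingosine 1-phosphate phosphatase, and ASAH1, a ceramidase that supplies sphingosine, fell 1.76-fold and 1.72-fold. For nucleotides and adenosine, 7 of 12 rose (58.3%, against 23.4% of all genes), 3 fell (25.0%, against 23.9%) and 2 did not pass (median 0.40). NT5E (CD73), which turns AMP into adenosine outside the cell, stood at 57.9 ± 2.02 CPM in TGFB1 libraries and 4.37 ± 0.152 CPM in control libraries (13.2-fold, edgeR adjusted p = 5.19e-23), the adenosine transporter SLC29A1 rose 2.73-fold and the ATP release channel PANX1 1.44-fold, and ENPP1, which cleaves ATP, fell 3.42-fold. For prostaglandin E2, 3 of 11 rose (27.3%, against 23.4% of all genes), 6 fell (54.5%, against 23.9%) and 2 did not pass (median −0.24). The cyclooxygenase PTGS1 and the phospholipase PLA2G4A fell 2.02-fold and 1.74-fold and the reductase PTGR1 1.55-fold, while SLCO2A1, which takes prostaglandins up, stood at 7.26 ± 0.478 CPM in TGFB1 libraries and 1.23 ± 0.118 CPM in control libraries.

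**Figure D4:**
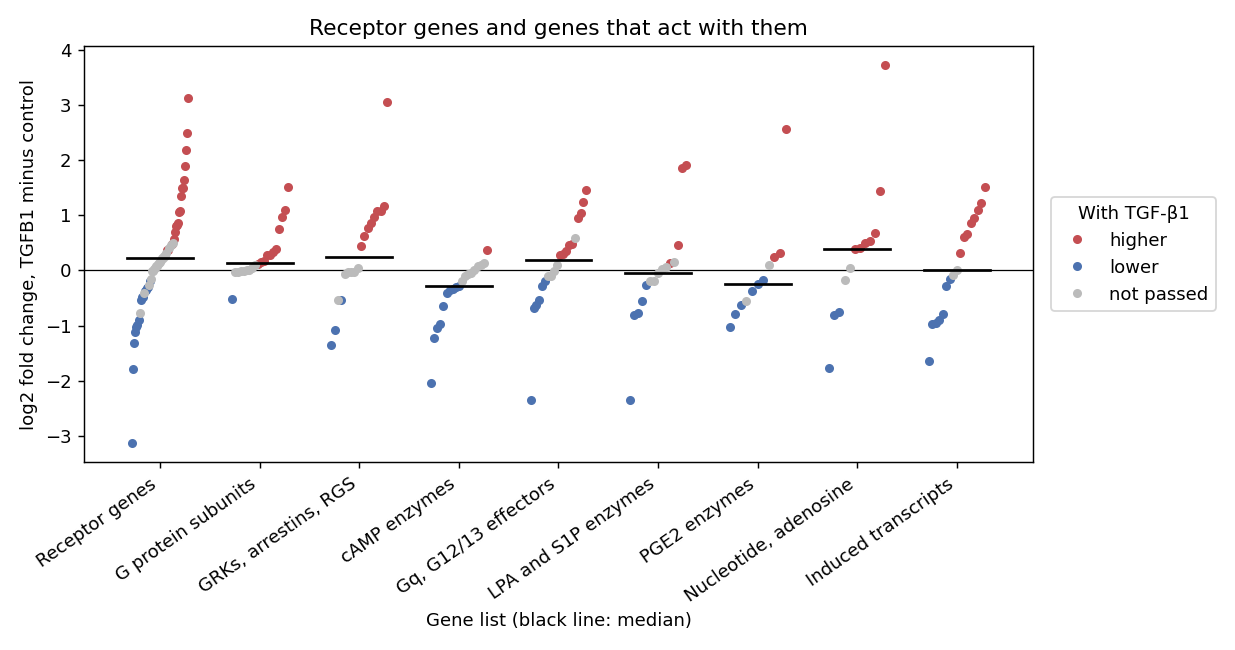
Log2 fold change (TGFB1 minus control, vertical axis) of each tested gene, as a point coloured by call, in the receptor set (55 of 60 drawn) and the 8 lists, with the median over all tested genes as a black line. The receptor genes drawn spread from −3.13 to 3.13 about a median of 0.22, and the cyclic AMP enzymes have a median of −0.28.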

How the data were processed

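The submitters' processing notes name the aligner TopHat (also as TopHat2 2.0.11), HTSeq, and GRCh37 and hg19 as builds, with no role or order. Of the annotation, strand setting and read filters nothing can be stated (not given in the sources used here). The authors deposited 1 table of raw read counts per gene symbol and library. Reads over several genes (9.01% to 9.43% of all lines), reads aligned to several places (12.0% to 12.5%) and reads with no feature (5.44% to 5.98%) are outside the gene counts and stayed out of library sizes, which lowers genes with overlaps or copies. Of the 60 tested receptor genes 7 share at least 10% of their GENCODE 29 exon length with another gene.

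Genes were kept with edgeR 4.0.16 filterByExpr (minimum count 10, minimum total 15), scaled by TMM, and tested TGFB1 against control with glmQLFit (robust) and glmQLFTest, with Benjamini-Hochberg adjustment over 14897 genes and a threshold of 0.05. The standard error of a fold change was its size over the square root of F. CPM is per TMM-scaled library, and CPM per kb divides by the union exon length. Where a group had 1 to 3 counts the ratio has an exact 95% interval, and where it had 0 the floor was 3 counts over the group. Without molecular identifiers these cover counting error only. Libraries of a group differed beyond sampling noise (chi-square 1.82 to 4.67 per degree of freedom). The test was tried on simulated counts.

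Members and lists were chosen with earlier results of these data known. Some genes counted in the totals are not reported here. Otherwise named were all called receptor genes, those among the 10 highest levels, untested ones with at least 10 counts, and up to 4 genes with the lowest p per list. Other genes, such as tested relatives that did not pass, were named after their values were seen. Alternatives were DESeq2 1.42.0, limma-voom (limma 3.58.1), 3 other scalings, 2 other filters, a non-robust fit, a block for the replicate number, and fits lacking 1 library.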

Additional observations from a re-analysis of the deposited data

How the results depend on the processing

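The counts of receptor genes called moved little. Over 15 alternatives, of which 6 leave out a library each, between 20 and 26 rose and between 14 and 18 fell, against 22 and 15. None of the 37 called receptor genes changed direction wherever tested, nor did GPR180. Direction was not compared for the other named genes. Dropping the count filter gave 26 and 18, and library size alone 24 and 15. Of all genes, 3483 rose and 3561 fell in the main fit, 3551 and 3560 without the filter, and 4216 and 2879 with library size alone. Without single libraries 21 to 24 rose and 14 to 17 fell, and 6115 to 6816 of all genes were called, against 7044. DESeq2 called 6041 genes, of which 21 and 15 were receptor genes. Of the 37 called receptor genes 33 kept their call wherever they were tested, and GPR144, GPR153, GPR160 and GPR3 lost it in some. Under a filter of 1 CPM in 3 libraries 2 of the 37 were not tested.

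No pairing of the libraries by replicate number was seen, but 3 libraries per group are too few to tell whether same-numbered libraries shared a culture or batch. Deviations of same-numbered libraries from their group means correlated at 0.0306, −0.107 and −0.0481, and 1 of the 6 libraries correlated best with its own number. With the replicate number as a block 23 receptor genes rose, 15 fell and 6775 of all genes were called. Genes under about 0.682 CPM (10 counts in a library of median size) mostly fall below the filter, which removed 86 of the 146 receptor genes from the test.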
